A study of Mus musculus with 5 samples.

Results

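Histone H3 lysine 27 acetylation (H3K27ac) was examined at 9 genes that encode the subunits and inhibitors of NF-κB, in regulatory T (Treg) cells of the mouse large intestine (LI). The genes were Rel, Rela, Relb, Nfkb1, Nfkb2, Nfkbia, Nfkbiz, Nfkbid and Tnfaip3. They were chosen by name, and each was given the CUT&Tag peaks that overlapped its annotated span extended by 20 kb on each side. This gave 136 of the 124158 peaks, for 9 of 21938 protein-coding genes. H3K27ac marks active promoters and enhancers, and CUT&Tag maps it by directing a transposase to the mark with an antibody, so that the DNA beside it is cut and tagged.

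The Ctrl libraries came from Foxp3Cre-YFP Setd2 f/+ mice and the KO libraries from Foxp3Cre-YFP Setd2 f/f littermates, 2 weeks of age and on a C57BL/6 background. Both genotypes therefore carried a Cre recombinase expressed from Foxp3, so that by design 1 Setd2 allele is deleted in Ctrl Treg cells and both are in KO Treg cells. Each group held 2 libraries of 60000 sorted CD3+CD4+YFP+ cells, each pooled from 3 to 5 female and male mice. The edgeR p-values of gene sums below combine the spread between these libraries with a spread shared over all genes. Those of single peaks use the spread shared over peaks only. The smallest two-sided p of an exact permutation test of 2 against 2 is 0.333. An IgG library was listed with the samples and was not analysed here. The comparison of KO with Ctrl asks how loss of Setd2, the methyltransferase for trimethylation of H3K36, alters H3K27ac over these genes.

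NF-κB proteins are dimers held in the cytoplasm by IκB inhibitors until a receptor signal has the inhibitor degraded. In the canonical arm, c-Rel (Rel) and RelA (Rela) pair with p50, which is cut from the precursor encoded by Nfkb1. In the alternative arm RelB (Relb) pairs with p52, the product of Nfkb2. IκBα (Nfkbia) and the ubiquitin-editing enzyme A20 (Tnfaip3) are switched on by NF-κB and shut it down again, whereas IκBζ (Nfkbiz) and IκBNS (Nfkbid) are nuclear IκB proteins that act on promoters already bound by p50. In Treg cells, c-Rel is best known for its part in the induction of Foxp3 in the thymus, and RelA for maintaining the activated state.

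The libraries held from 2395002 to 4712473 counts in peaks. Setd2, the targeted gene, carried 129.8 and 179 CPM over its 20 kb window in Ctrl and 101 and 138 CPM in KO. The groups overlapped (edgeR log2 fold change −0.37 with an SE of 0.27 and an adjusted p of 1), and acetylation over the locus does not measure the deletion itself. Peaks at the start sites of 6 markers of Treg and CD4 T cells (Foxp3, Il2ra, Ctla4, Ikzf2, Cd3e and Cd4) summed to 712 and 795.5 CPM in Ctrl and 813 and 1002 CPM in KO, so that the KO libraries lay above the Ctrl libraries, and the part of this in the results below was not tested. The 4 myeloid markers (Csf1r, Lyz2, Itgam and Adgre1) had no peak at a start site. The corresponding sums were 6.25 to 11.3 CPM for 2 CD8 T cell markers, 13.1 to 24.4 CPM for 3 B cell markers and 9.95 to 14.5 CPM for 4 epithelial markers, with Cd8a, Ms4a1 and Krt20 at 0. Libraries that shared a replicate number, in different genotypes, also differed from the others in the same direction, which touches several of the genes below.

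The promoters of the genes are shown first because the acetylated peaks covered them and because several members are known targets of NF-κB themselves. RefSeq promoters (GRCm38.p6, the assembly of mm10, 250 bases before to 50 after a start site) were matched for 6 of the 9 members, with 11 promoters in all. For each of these 6 genes 1 promoter is printed 5′ to 3′ on the gene's strand, and capitals mark matches to the κB consensus, searched on both strands. Each of the 300 bases of every printed promoter lay within a peak.
Rel, chr11:23770920-23771219, minus strand: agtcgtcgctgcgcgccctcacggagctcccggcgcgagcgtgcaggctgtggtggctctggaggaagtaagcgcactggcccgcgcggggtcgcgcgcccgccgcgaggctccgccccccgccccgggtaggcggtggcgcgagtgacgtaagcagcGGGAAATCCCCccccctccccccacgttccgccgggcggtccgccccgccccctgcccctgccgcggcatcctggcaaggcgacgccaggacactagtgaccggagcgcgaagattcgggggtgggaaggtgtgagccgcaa
Rela, chr19:5637291-5637590, plus strand: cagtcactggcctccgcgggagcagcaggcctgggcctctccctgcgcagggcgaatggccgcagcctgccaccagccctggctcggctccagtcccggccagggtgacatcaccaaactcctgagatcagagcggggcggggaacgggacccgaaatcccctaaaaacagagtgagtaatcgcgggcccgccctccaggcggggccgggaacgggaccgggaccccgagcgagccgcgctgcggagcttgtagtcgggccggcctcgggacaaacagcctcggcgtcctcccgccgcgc
Nfkb2, chr19:46304487-46304786, plus strand: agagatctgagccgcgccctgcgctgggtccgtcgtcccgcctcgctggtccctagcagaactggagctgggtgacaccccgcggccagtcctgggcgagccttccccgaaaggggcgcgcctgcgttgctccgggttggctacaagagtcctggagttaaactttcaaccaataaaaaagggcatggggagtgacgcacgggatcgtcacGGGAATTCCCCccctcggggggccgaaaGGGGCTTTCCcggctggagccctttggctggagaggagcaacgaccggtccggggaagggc
Nfkbia, chr12:55492598-55492897, minus strand: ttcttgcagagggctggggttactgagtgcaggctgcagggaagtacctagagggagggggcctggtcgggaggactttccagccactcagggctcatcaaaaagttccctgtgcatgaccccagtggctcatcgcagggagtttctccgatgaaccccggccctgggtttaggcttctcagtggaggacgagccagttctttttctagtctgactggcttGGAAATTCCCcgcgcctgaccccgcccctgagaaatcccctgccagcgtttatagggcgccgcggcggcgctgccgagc
Nfkbid, chr7:30422156-30422455, plus strand: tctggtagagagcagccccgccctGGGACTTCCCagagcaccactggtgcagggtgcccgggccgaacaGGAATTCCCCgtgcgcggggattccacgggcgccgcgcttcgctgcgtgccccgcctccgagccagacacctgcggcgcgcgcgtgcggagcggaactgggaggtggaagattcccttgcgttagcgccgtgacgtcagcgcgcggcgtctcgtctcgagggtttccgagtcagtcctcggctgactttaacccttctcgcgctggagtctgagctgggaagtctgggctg
Tnfaip3, chr10:19015361-19015660, minus strand: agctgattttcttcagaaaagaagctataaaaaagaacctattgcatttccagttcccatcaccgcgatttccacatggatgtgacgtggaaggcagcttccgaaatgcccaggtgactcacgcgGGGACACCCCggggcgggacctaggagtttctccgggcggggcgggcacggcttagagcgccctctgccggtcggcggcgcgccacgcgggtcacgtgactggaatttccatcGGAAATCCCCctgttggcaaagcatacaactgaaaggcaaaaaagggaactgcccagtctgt

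The κB consensus was found in 7 of the 11 promoters, belonging to 5 of the 6 genes, against 4.51% of the 32851 promoters in the RefSeq table. The match of Rel began 92 bases before the start site, and a second match that overlaps it began at −91, so that the capitals there mark 1 place. Nfkb2 held an overlapping pair at −39 and −38 and a further match at −11. The match of Nfkbia lay at −29, those of Nfkbid at −226 and −181, and those of Tnfaip3 at −125 and −12. Another match of Nfkb2, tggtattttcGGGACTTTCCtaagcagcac with 10 bases on each side (chr19:46305705-46305714), was part of 2 further annotated promoters of this gene, 11 bases after one start site and 225 bases before the other. The Rela promoter shown had no match. A match describes the letters in these windows only, and binding was not measured.

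The 9 genes also had wide peaks at the start site. Their width and CPM were set beside all peaks, not beside the highest start-site peaks of other genes. Here a TSS peak is a peak within 3 kb of an annotated transcription start site (TSS) of the gene. The TSS peak with the highest mean CPM was 2935 bp (Rela) to 7277 bp (Tnfaip3) wide, while the median of all peaks was 477 bp. In mean CPM these peaks lay between the 97.9th percentile of all peaks (Rela) and the 99.8th (Nfkbid). The κB consensus occurred in 9 of these 9 peaks, 0.681 matches per kb, and in 49.8% of 1702 other TSS peaks in the same range of widths, 0.196 per kb. The count was highest in the TSS peak of Nfkbia with 7 matches, followed by Nfkb2 with 6 and Nfkbid with 5. Over the whole windows, 22.8% of the 136 peaks held a match, 0.361 per kb, against 9.12% of all peaks, 0.145 per kb. The median width was 701.5 bp in the windows and 477 bp over all peaks. The AP-1 motif TGANTCA was present in 30.9% of the member peaks, 0.385 per kb, and 20.3% of all peaks, 0.328 per kb.

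**Figure D1:**
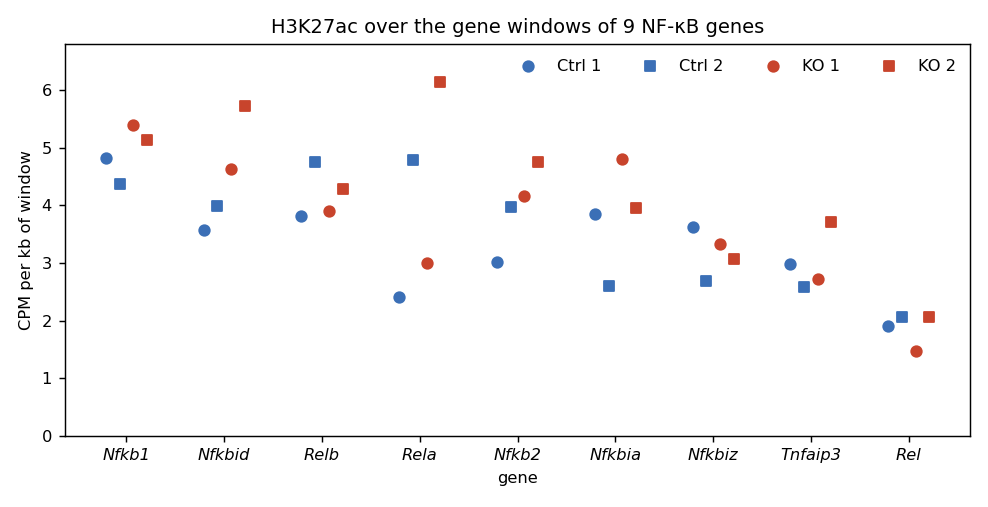
H3K27ac in CPM per kb of each gene window (gene span and 20 kb on each side) for the 2 Ctrl (blue) and 2 KO (red) libraries, replicate 1 as circles and replicate 2 as squares, with genes in order of the mean of the 4. Nfkb1 was highest with a mean of 4.93 and Rel lowest with 1.87, and at Rela both squares lay above both circles.

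Relative to the length of the window, H3K27ac was strongest at Nfkb1, with a mean over the 4 libraries of 4.93 CPM per kb, and weakest at Rel, with 1.87. Between them lay Nfkbid with 4.47, Relb with 4.18, Rela with 4.08, Nfkb2 with 3.97, Nfkbia with 3.80, Nfkbiz with 3.17 and Tnfaip3 with 3.00 CPM per kb. For 7 of the 8 pairs of neighbours in this order the ranges of the 4 libraries overlapped. The exception was Tnfaip3 with 2.59 to 3.71 against Rel with 1.46 to 2.06 CPM per kb. Among the 16106 gene windows tested, the members lay between the 72.5th (Rel) and the 94.6th percentile (Nfkb1) on this scale. The level of a window includes peaks of its neighbours. Peaks within 3 kb of the TSS of another protein-coding gene held 88.4% of the counts of the Nfkbid window (mean of 4 libraries), 44.0% at Rela, 13.9% at Nfkb2 and 5.05% at Relb, and none at the other 5 genes. At Nfkbid most of this was a peak that spans its own TSS and also lies near that of Hcst. A second measure was therefore used, the own-gene peaks, which overlap the gene or lie within 3 kb of its TSS and not within 3 kb of the TSS of another gene. This measure leaves out the shared peak over the start of Nfkbid.

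For no member did the difference between KO and Ctrl pass the test in the fit of genotype alone. In the windows 0 of 9 members passed an adjusted p of 0.05 in edgeR, as did 0% of the 16106 windows tested. None had an unadjusted p under 0.05, where 0.335% of the windows were higher and 2.2% lower in KO. DESeq2 also called 0 members at either threshold. In sorted populations a change in the share of cells that carry the mark and a change in the mark per cell cannot be told apart. Both KO libraries exceeded both Ctrl libraries at 4 of the 9 members (44.4%), against 11.9% of the windows tested, and both lay below at 0, against 16.8%. The median log2 fold change of the 9 windows was 0.21, with 7 above 0 and 2 below, and −0.0058 over the windows tested. This median moves with abundance. When the windows were split by mean CPM into 10 equal bins it was 0.18 in the highest, which held Relb and Nfkb1, 0.083 in the next, which held 6 members, and −0.0041 in the bin of Rel.

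With own-gene peaks 0 of 9 members passed the adjusted p of edgeR, as did 0% of 12072 genes, and 0 had an unadjusted p under 0.05, against 4.32% of the genes. DESeq2 gave 0 at both thresholds as well. The KO libraries lay above the Ctrl libraries at 5 members, against 12.6% of the genes, and below at 0, against 19.4%. Nfkbid was among the 5, with only 28 to 62 counts per library, since its shared peak is left out. The members had a median log2 fold change of 0.28, and the genes tested one of −0.038. These values were set against all genes and not against genes of like abundance. Apart from Nfkbid, the members lay at percentiles 78.5 (Rela) to 99.25 (Nfkb1) of own-gene CPM.

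**Figure D2:**
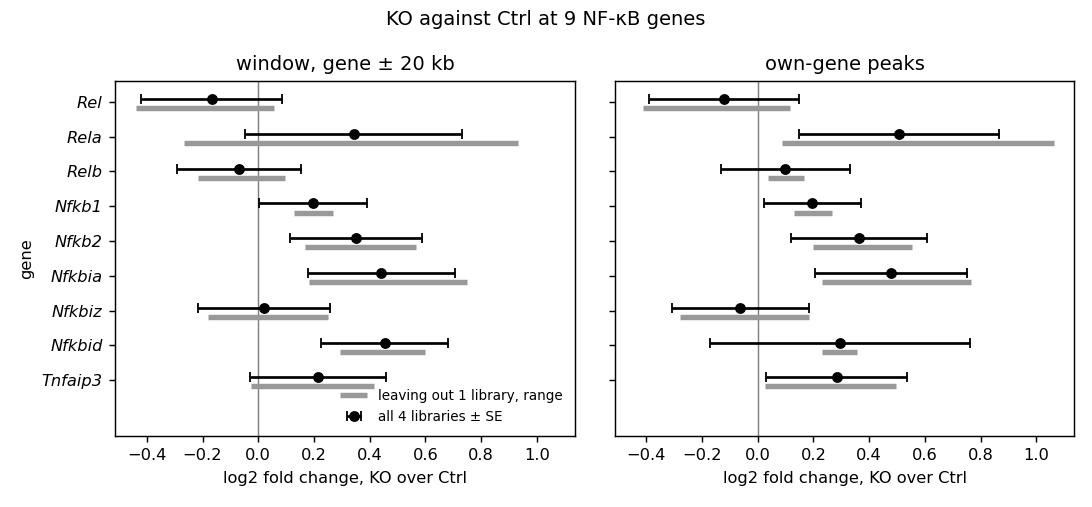
Log2 fold change of KO over Ctrl for each member, from the counts of the 20 kb window (left) and of the own-gene peaks (right). Points and bars are the edgeR estimate from 4 libraries with its SE, and grey lines span the 4 estimates made with 1 library left out. The grey lines cross 0 at Rel, Rela, Relb, Nfkbiz and Tnfaip3 in the windows, and at Rel and Nfkbiz in the own-gene peaks.

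Among the canonical subunits, Rel (ENSMUSG00000020275.9, chromosome 11, 23736847 to 23770970, minus strand) encodes c-Rel. Its window of 12 peaks carried 141 and 153 CPM in Ctrl and 108 and 153 CPM in KO. KO 1 was the low library and the groups overlapped. The means were 147 ± 8.67 CPM for Ctrl and 130.5 ± 31.2 CPM for KO (SD over 2 libraries per genotype), a log2 fold change of −0.17 (SE 0.25, edgeR adjusted p = 1) that was 0.055 without KO 1. Of its 11 tested peaks 8 had a log2 fold change below 0. The peak over its start site (chr11:23769086-23772100) held 72.8 and 75.6 CPM in Ctrl and 55.9 and 86.7 CPM in KO. The next peak, upstream of the gene (chr11:23772264-23773998), held between 14.5 and 17.3 CPM in the 4 libraries. The 3 peaks inside the gene body held 15.8 and 11.3 CPM in Ctrl and 6.71 and 9.58 CPM in KO, and of the 2 of them that could be tested, neither had an unadjusted p under 0.05.

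Rela (ENSMUSG00000024927.8, chromosome 19, 5637483 to 5648130, plus strand) encodes RelA, the main transactivating subunit of the canonical arm. Its window carried 122 and 243 CPM in Ctrl and 152 and 311 CPM in KO. The replicate 2 libraries were higher than the replicate 1 libraries in both genotypes, by a factor of 2.00 in Ctrl and 2.04 in KO, and the genotypes overlapped. The log2 fold change was 0.34 (SE 0.39, edgeR adjusted p = 1), with values from −0.27 without KO 2 to 0.93 without Ctrl 2. The highest peak of the window was not at Rela. It lay at the start site of Sipa1 (chr19:5659835-5664450), with 43.4 and 107 CPM in Ctrl and 55.5 and 137.5 CPM in KO. Own-gene peaks of Rela carried 47.5 and 91.1 CPM in Ctrl and 74.2 and 124 CPM in KO (edgeR log2 fold change 0.51 with an SE of 0.36 and an adjusted p of 0.999), again with replicate 2 above replicate 1. This value ran from 0.088 without KO 2 to 1.06 without Ctrl 2. Its TSS peak held 40.7, 61.9, 53.3 and 87.5 CPM in Ctrl 1, Ctrl 2, KO 1 and KO 2 (log2 fold change 0.047 without KO 2 and 0.80 without Ctrl 2), and each of its 4 own-gene peaks had a log2 fold change above 0. The highest remaining peak, just downstream of the gene (chr19:5648347-5649391), held 12.2, 15.5, 10.1 and 21.6 CPM in the same order.

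Nfkb1 (ENSMUSG00000028163.17, chromosome 3, 135584655 to 135691547, minus strand) encodes the p105 precursor of p50. It had the highest mean per kb of window among the members, with a range that overlapped that of Nfkbid. Its window carried 707 and 641 CPM in Ctrl and 792 and 754 CPM in KO. Both KO libraries exceeded both Ctrl libraries. The means of 674 ± 46.5 CPM for Ctrl and 773 ± 26.8 CPM for KO (SD over 2 libraries per genotype) gave a log2 fold change of 0.20 (SE 0.19, edgeR adjusted p = 1), and −0.038 with a loess offset that removes the trend with abundance. The gene differed from the others in the way its mark was spread. It was also the longest member, at 106893 bp, and the part of length in this spread was not tested. It had 34 peaks that covered 62.4 kb, and 33 of them lay over the gene or its start. An 11829 bp peak in the gene body (chr3:135601732-135613560), overlapping exons, held 160.2 and 129.5 CPM in Ctrl and 203 and 173 CPM in KO, more in each library than the TSS peak (chr3:135687642-135694185) with 93.2 and 78.0 CPM in Ctrl and 87.6 and 93.7 CPM in KO. The TSS peak was narrower, at 6544 bp, and per kb the means were close, 14.1 CPM in the wide peak and 13.5 CPM in the TSS peak. The KO libraries lay above the Ctrl libraries in the wide peak (edgeR log2 fold change 0.38 with an SE of 0.26 and an adjusted p of 0.998, and 0.13 with that offset), and the groups overlapped in the TSS peak (0.086, SE 0.28).

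Of the alternative subunits, Relb (ENSMUSG00000002983.17, chromosome 7, 19606217 to 19629438, minus strand) encodes RelB. Its window carried 242 and 300.0 CPM in Ctrl and 246 and 270.3 CPM in KO, and the KO libraries lay inside the range of the Ctrl libraries (edgeR log2 fold change −0.069 with an SE of 0.22 and an adjusted p of 1). The TSS peak (chr7:19627563-19633915) held 127 and 131 CPM in Ctrl and 139.7 and 146 CPM in KO, and the groups did not overlap (edgeR log2 fold change 0.14 with an SE of 0.27 and an adjusted p of 0.998). In the flanks the balance was the other way: 10 of 12 tested flanking peaks had a log2 fold change below 0, and they summed, with the 2 untested, to 107 and 153 CPM in Ctrl and 96.5 and 118 CPM in KO. The highest of them (chr7:19636539-19638036) held 15.4 and 22.3 CPM in Ctrl and 9.69 and 14.4 CPM in KO (edgeR log2 fold change −0.64 with an SE of 0.44 and an adjusted p of 0.998). The log2 fold change of Relb was accordingly 0.10 in own-gene peaks (SE 0.23, edgeR adjusted p = 0.999).

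Nfkb2 (ENSMUSG00000025225.15, chromosome 19, 46304320 to 46312385, plus strand) encodes p100, which restrains RelB until it is cut to p52. The window carried 145 and 191 CPM in Ctrl and 200.5 and 228 CPM in KO, with KO above Ctrl in every pairing of libraries. The means were 168 ± 32.5 CPM for Ctrl and 214 ± 19.6 CPM for KO (SD over 2 libraries per genotype, and an edgeR log2 fold change of 0.35 with an SE of 0.24 and an adjusted p of 1), and the log2 fold change was 0.17 without Ctrl 1 and 0.57 without Ctrl 2. Per kb, its TSS peak (chr19:46303417-46306500), which holds the κB matches shown above, was the densest of the 9, with a mean of 41.7 CPM per kb against 13.5 to 24.1 in the others. It held 95.0 and 129.5 CPM in Ctrl and 136 and 154 CPM in KO (edgeR log2 fold change 0.37 with an SE of 0.27 and an adjusted p of 0.998), and 0.14 with the offset on abundance. The next peak, over exons (chr19:46308660-46309405), held 7.24 and 7.44 CPM in Ctrl and 13.0 and 10.1 CPM in KO.

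Of the inhibitors, Nfkbia (ENSMUSG00000021025.8, chromosome 12, 55489410 to 55492647, minus strand) encodes IκBα. Its window carried 166.5 and 112.5 CPM in Ctrl and 207.5 and 171 CPM in KO, so that both KO libraries exceeded both Ctrl libraries, KO 2 by a small margin over Ctrl 1. The means were 139.5 ± 38.2 CPM for Ctrl and 189 ± 25.9 CPM for KO (SD over 2 libraries per genotype, and an edgeR log2 fold change of 0.44 with an SE of 0.26 and an adjusted p of 1), and the value lay between 0.18 without Ctrl 2 and 0.75 without Ctrl 1. Of its 9 tested peaks 8 had a log2 fold change above 0. The TSS peak (chr12:55489828-55493590) held 88.2 and 57.4 CPM in Ctrl and 99.8 and 82.9 CPM in KO, with overlap (log2 fold change 0.33, and 0.15 with the offset on abundance). The peak at the 3′ end of the gene (chr12:55487825-55489511) held 19.9 and 22.9 CPM in Ctrl and 41.7 and 31.4 CPM in KO, without overlap (edgeR log2 fold change 0.76 with an SE of 0.35 and an adjusted p of 0.998).

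Tnfaip3 (ENSMUSG00000019850.11, chromosome 10, 19000910 to 19015657, minus strand) encodes A20. The window carried 163 and 142 CPM in Ctrl and 149 and 203 CPM in KO. KO 2 was the high library and the groups overlapped (edgeR log2 fold change 0.21 with an SE of 0.25 and an adjusted p of 1, and −0.026 without KO 2). The mark was concentrated at the start of the gene: 2 TSS peaks held 84.1% ± 2.62 of the Ctrl counts and 88.0% ± 1.32 of the KO counts (SD over 2 libraries per genotype). The TSS peak (chr10:19010032-19017308) held 115 and 106.5 CPM in Ctrl and 106 and 153 CPM in KO. The adjoining peak over exons (chr10:19007667-19009655) held 19.0 and 15.2 CPM in Ctrl and 23.9 and 27.5 CPM in KO, without overlap (edgeR log2 fold change 0.60 with an SE of 0.39 and an adjusted p of 0.998).

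Among the nuclear IκB genes, Nfkbiz (ENSMUSG00000035356.17, chromosome 16, 55811375 to 55838899, minus strand) encodes IκBζ, a cofactor that p50 dimers need at a set of secondary response genes. Its window carried 244 and 181 CPM in Ctrl and 225 and 207 CPM in KO, and the KO libraries lay between the Ctrl libraries (edgeR log2 fold change 0.021 with an SE of 0.24 and an adjusted p of 1). It was the member with 2 start-site peaks of similar size. The wider one (chr16:55817738-55823115) held 108 and 69.6 CPM in Ctrl and 80.5 and 81.2 CPM in KO, and the other (chr16:55836004-55839422) held 72.8 and 58.0 CPM in Ctrl and 63.3 and 62.8 CPM in KO. Again KO lay between the Ctrl libraries at both.

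Nfkbid (ENSMUSG00000036931.15, chromosome 7, 30421732 to 30428746, plus strand) encodes IκBNS, which is needed for the step from Foxp3-negative precursor to Treg cell. Its window carried 168 and 187 CPM in Ctrl and 218 and 269 CPM in KO, with KO above Ctrl in every pairing of libraries, and a log2 fold change of 0.45 (SE 0.23, edgeR adjusted p = 1), next to the 0.44 of Nfkbia. Most of this signal came from 1 peak of 7144 bp (chr7:30417367-30424510) that also lies within 3 kb of the TSS of Hcst and held 131 and 145.5 CPM in Ctrl and 163 and 213.5 CPM in KO (edgeR log2 fold change 0.45 with an SE of 0.26 and an adjusted p of 0.998, and 0.19 with the offset on abundance). Without the peaks near start sites of Hcst and Tyrobp, which encode adaptor proteins of NK cell and myeloid receptors, the log2 fold change of the window was 0.10. Own-gene peaks carried 12.7 and 11.6 CPM in Ctrl and 14.9 and 14.9 CPM in KO (edgeR log2 fold change 0.30 with an SE of 0.47 and an adjusted p of 0.999). The peak over exons beyond the shared one (chr7:30424851-30426121) held 9.95 and 8.63 CPM in Ctrl and 10.4 and 8.62 CPM in KO. Signal of Nfkbid and of Hcst in the shared peak cannot be told apart.

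**Figure D3:**
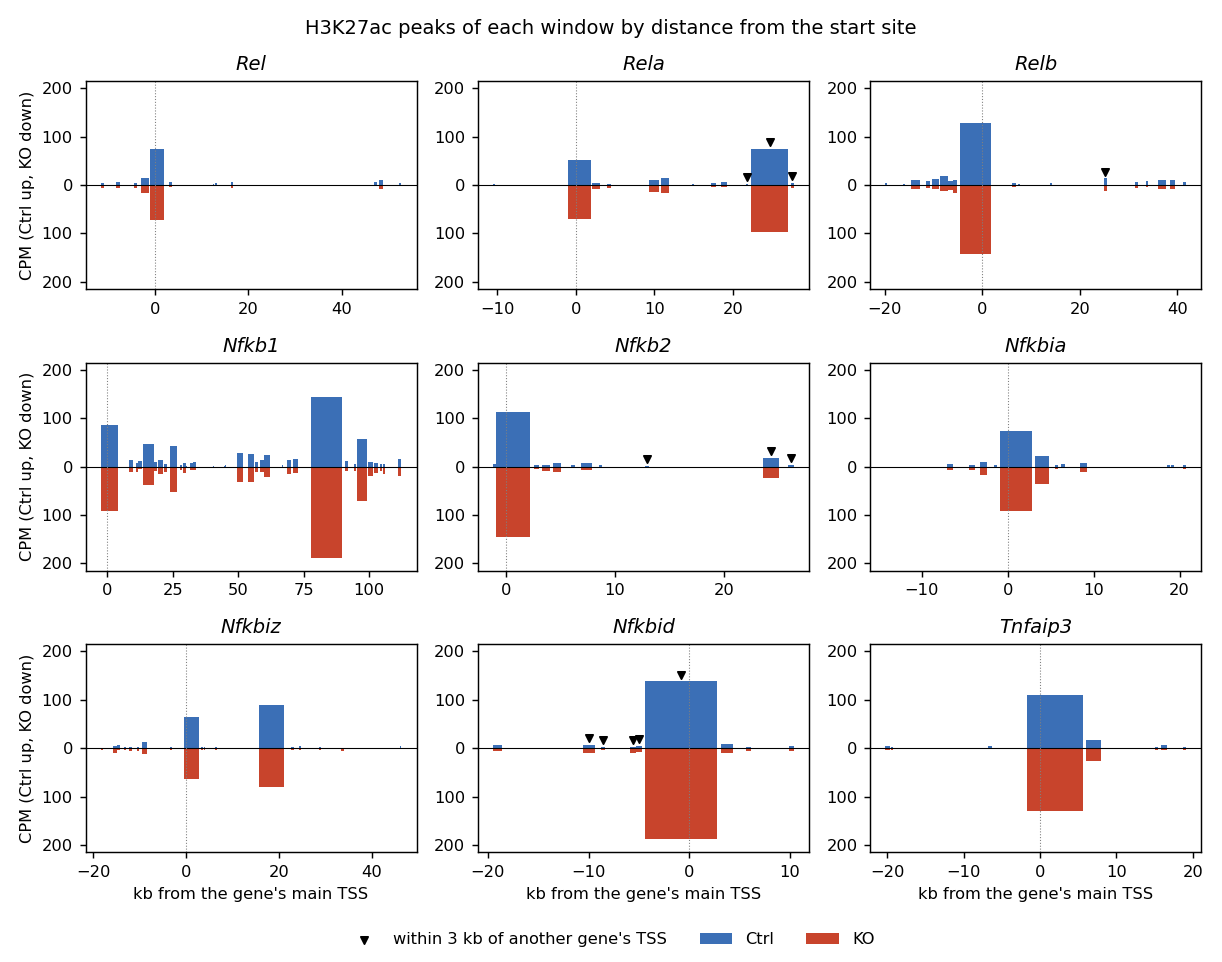
Peaks of the 9 windows by distance in kb from the main TSS of the gene, in the direction of transcription. Bars have the width of the peak, and their height is the mean CPM of 2 Ctrl libraries (blue, upward) and 2 KO libraries (red, downward); triangles mark peaks within 3 kb of the TSS of another gene. In Nfkb1 the widest peak, 11829 bp, lies in the gene body, and in Nfkbid the main peak is shared.

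Single peaks were tested as well. Of the 136 peaks, 112 had at least 10 counts in at least 2 libraries and were tested, and 0 passed the adjusted p of edgeR, as did 0.00134% of 74550 peaks. Log2 fold changes were above 0 in 63 and below 0 in 49. Unadjusted p-values under 0.05 were found for 4 higher peaks (3.57%, against 1.45% of the peaks tested) and 1 lower peak (0.893%, against 2.79%). DESeq2 called 0 and gave an unadjusted p under 0.05 for 2, beside 1486 of all 74550 peaks. The KO libraries lay above the Ctrl libraries in 29 peaks (25.9%, against 16.9%) and below them in 17 (15.2%, against 16.4%). By position, 18 of 24 TSS peaks, 21 of 38 gene body peaks and 24 of 50 flanking peaks had a log2 fold change above 0, with medians of 0.19, 0.054 and −0.010. Of all peaks tested 49.2% were above 0, with a median of −0.012. Values by position, or at like abundance, over all peaks were not compared. With the offset on abundance the highest TSS peaks of Relb, Nfkb1 and Tnfaip3 fell below 0, and those of Rela, Nfkb2, Nfkbia and Nfkbid stayed above 0. The share of window counts in TSS peaks was higher in KO without overlap at 27.9% of 11985 windows, and lower at 10%.

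Besides the Nfkbia peak given above, 3 of these 5 peaks lay in Nfkb1 and 1 near Nfkbid. The most 3′ peak of Nfkb1 (chr3:135585333-135586153), over an exon, held 13 and 17 counts (5.88 and 5.06 CPM) in the Ctrl libraries against 40 and 60 counts (14.9 and 14.4 CPM) in KO (edgeR log2 fold change 1.42 with an SE of 0.54 and an adjusted p of 0.998). A peak near an internal start site of the same gene (chr3:135668921-135669938) held 5.43 and 5.06 CPM in Ctrl and 13.4 and 9.58 CPM in KO (edgeR log2 fold change 1.12 with an adjusted p of 0.998). An intronic peak (chr3:135678439-135679737) went the other way, with 13.1 and 9.82 CPM in Ctrl and 3.73 and 5.27 CPM in KO (edgeR log2 fold change −1.31 with an adjusted p of 0.998). The peak upstream of Nfkbid (chr7:30415879-30416400) lay within 3 kb of the TSS of Tyrobp and held 3.17 and 2.38 CPM in Ctrl and 8.20 and 10.1 CPM in KO (edgeR log2 fold change 1.73 with an adjusted p of 0.998). The peaks in Nfkb1 and near Nfkbid held 7 to 60 counts per library and the Nfkbia peak 44 to 131. The groups did not overlap in any of the 5. That follows largely from the choice of these peaks by unadjusted p in the same libraries.

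The division of the mark between the start site and the rest of the window differed more between genes than between genotypes. TSS peaks held 20.7% to 23.0% of the counts at Nfkb1 and 28.5% to 38.0% at Rela, where the peak of Sipa1 is part of the total. At the other end they held 76.1% to 80.6% at Nfkb2, 79.8% to 84.1% at Nfkbid and 82.2% to 88.9% at Tnfaip3. The main TSS peak of Nfkbid is the one shared with Hcst. Over the 9 genes together Ctrl 1 had a share of 52.6% (95% exact Clopper-Pearson interval 51.2% to 54.1%) and Ctrl 2 of 48.8% (47.6% to 49.9%). KO 1 had 51.1% (49.8% to 52.4%) and KO 2 had 52.7% (51.8% to 53.7%). These intervals cover counting error only, with each count taken as independent. The mean was 50.7% ± 2.73 for Ctrl and 51.9% ± 1.17 for KO (SD over 2 libraries per genotype, exact permutation test, two-sided p = 0.667). Among single genes the share was higher in KO without overlap for Rel, Relb and Tnfaip3, 3 of the 9, against 27.9% of the 11985 windows with peaks both at and away from the start site. It was lower without overlap for Nfkbiz, 1 of the 9, against 10% of those windows. With 2 libraries against 2, lack of overlap always gives the smallest p of the exact permutation test, 0.333, so that p adds nothing for these 4.

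**Figure D4:**
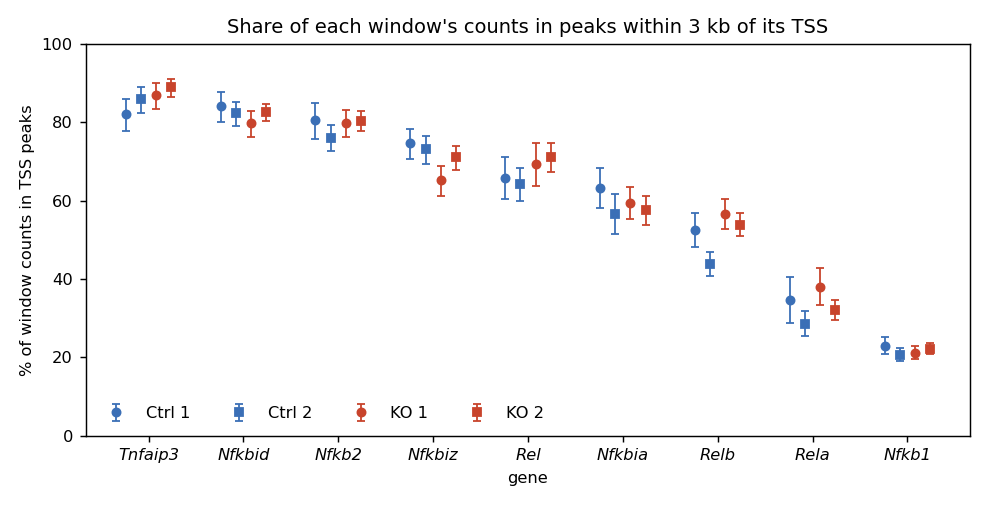
Share of the counts of each window that fell in peaks within 3 kb of the gene's own TSS, in percent, for 2 Ctrl (blue) and 2 KO (red) libraries, with exact 95% intervals for counting error. Genes are ordered by the mean of the Ctrl libraries, from Tnfaip3 with 84.1% to Nfkb1 with 21.8%.

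At most members the libraries of 1 genotype differed in the same way as those of the other. The sign of the difference between replicate 2 and replicate 1 was the same in Ctrl and KO for 8 of the 9 members, against 75.5% of 16070 windows. On the log2 scale Rela was 0.997 higher in Ctrl 2 than in Ctrl 1 and 1.03 higher in KO 2 than in KO 1. The same differences were −0.57 and −0.28 for Nfkbia and −0.43 and −0.12 for Nfkbiz. Tnfaip3 was the exception, with −0.20 in Ctrl and 0.44 in KO.

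**Figure D5:**
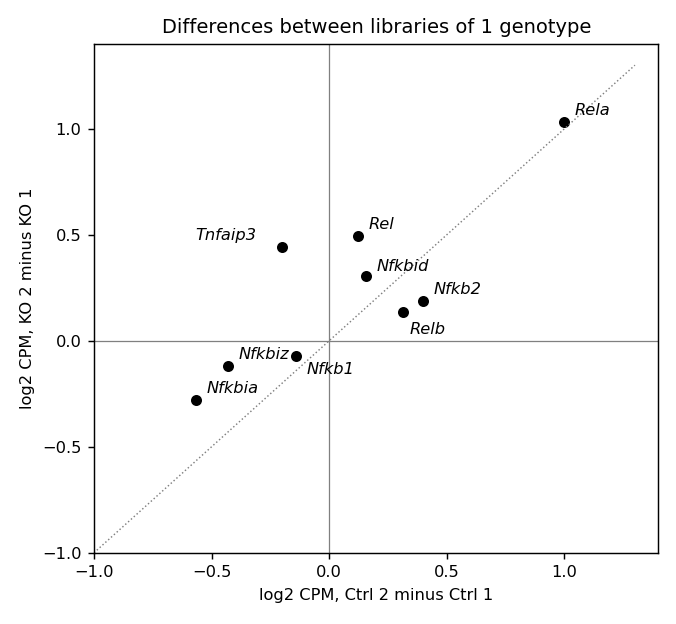
Difference in log2 CPM of the gene windows between the 2 libraries of a genotype, Ctrl on the horizontal and KO on the vertical axis; the dotted line marks equal differences. Rela stands apart with values of 0.997 and 1.03, and Tnfaip3 is the only member in the upper left part.

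Summed over the 9 windows, the libraries held 2097 and 2150.0 CPM in Ctrl and 2299 and 2565 CPM in KO. The genes whose windows followed this pattern most closely, by Euclidean distance of centred log2 CPM over the 4 libraries, were Milr1, Ap4b1 and Mbnl1, at distances of 0.011, 0.015 and 0.022. The median distance of the 9971 candidate genes was 0.44. With 4 libraries and so many candidates, the closest genes lie near almost any pattern, so these names were not read as a relation to the members.

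The wider pathway was followed in a list of 76 genes, of which 75 could be tested and Cd40 had no peak in its window. None passed the adjusted p of edgeR or an unadjusted p under 0.05, and DESeq2 likewise gave 0 at both thresholds. The KO libraries lay above the Ctrl libraries at 16 of the 75 (21.3%, beside the 11.9% of windows given above) and below at 8 (10.7%, beside 16.8%). The median log2 fold change was 0.15. Windows of list genes that lie side by side can share peaks, so the counts by role below are not counts of separate loci. Tnf held 245 and 374 CPM in Ctrl and 330 and 480 CPM in KO. Lta held nearly the same, with 247 and 377 CPM in Ctrl and 336 and 491 CPM in KO. Receptors that signal to NF-κB had a median of 0.26, with 6 of 14 non-overlapping upward (42.9%, against 11.9% of windows) and 2 downward (14.3%, against 16.8%). The strongest per kb was Tnfrsf4, the costimulatory receptor OX40, with 732 and 827 CPM in Ctrl and 929 and 1078 CPM in KO (edgeR log2 fold change 0.36 with an SE of 0.20 and an adjusted p of 1).

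Further along the pathway, the 4 genes of the T cell receptor arm had a median of 0.044. Its strongest was Prkcq, the kinase PKCθ, with 670 and 762 CPM in Ctrl and 739 and 965 CPM in KO, and these groups overlapped. The kinases of the IKK step had a median of −0.037, with 3 of 8 non-overlapping downward (Chuk, Ikbkb and Tab2) and 1 upward (Ikbkg), against 16.8% and 11.9% of windows. These 4 were named after their values were seen. The strongest was Map3k14, the kinase NIK of the alternative arm, with 152 and 230.3 CPM in Ctrl and 211 and 244 CPM in KO. Chuk, which encodes IKKα, held 32.1 and 31.6 CPM in Ctrl and 16.02 and 23.7 CPM in KO (edgeR log2 fold change −0.67 with an SE of 0.37 and an adjusted p of 1). For Ikbkb, which encodes IKKβ, the values were 169.7 and 176 CPM in Ctrl and 109.5 and 150.0 CPM in KO (edgeR log2 fold change −0.41 with an SE of 0.24 and an adjusted p of 1). Ikbkg, which encodes NEMO, the regulatory subunit of the same complex, held 62.9 and 57.1 CPM in Ctrl and 67.1 and 76.2 CPM in KO (edgeR log2 fold change 0.26 with an SE of 0.25 and an adjusted p of 1).

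The 22 adaptors and ubiquitin enzymes had a median of 0.0052, with 0 upward and 3 downward (13.6%, against 16.8% of windows), and the strongest was Birc3, an inhibitor of apoptosis protein that limits NIK, with 536 and 463 CPM in Ctrl and 529.8 and 551 CPM in KO. The 6 other inhibitors and cofactors had a median of 0.21, led by Nfkbib (IκBβ) with 288 and 368 CPM in Ctrl and 329 and 449 CPM in KO. The 21 known targets of NF-κB had a median of 0.25, with 8 non-overlapping upward (38.1%, against 11.9% of windows) and 0 downward (against 16.8%). The strongest of them was Junb, a subunit of AP-1, with 579.5 and 576 CPM in Ctrl and 612 and 686 CPM in KO (edgeR log2 fold change 0.17 with an SE of 0.20 and an adjusted p of 1). The shares of the targets and receptors were set against all windows and not against windows of like abundance. The median log2 fold change moves with abundance, as given above, and was 0.18 in the highest of the 10 bins.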

How the data were processed

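The authors aligned CUT&Tag reads to mm10 with Bowtie2, took IgG as the control for MACS2 peak calling, and joined the peaks with bedtools, with versions not given in the sources used here. The deposited values were raw counts of reads per merged peak with no normalization. Whether both mates of a read pair were counted is not given. If they were, the exact intervals are too narrow even for counting error.

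Here peaks were placed on protein-coding genes of GENCODE release M21, whose spans were extended by 20 kb. Counts were summed per gene for windows and for own-gene peaks. A window, own-gene sum or peak was tested where 2 or more libraries reached 10 counts. The test was the quasi-likelihood fit of edgeR (version 4.0.16, R version 4.3.3; TMM, no covariate, Benjamini-Hochberg adjustment over the features of each table). The fit had 2 residual degrees of freedom, and the prior degrees of freedom were 7.43 for windows, 8.64 for own-gene sums and infinite for peaks, where the own spread of a peak did not enter. CPM are counts scaled to the TMM-adjusted total in tested peaks. SEs were derived from the F statistic. Code was tested on simulated data.

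Every member was named, with its highest TSS peak, its highest other peak not near another gene's start site and each peak at an unadjusted p under 0.05, and from the pathway the gene with the highest CPM per kb of each role. The members and lists were chosen with earlier results of these data known.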

Additional observations from a re-analysis of the deposited data

How the results depend on the processing

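No member window, own-gene sum, member peak or pathway gene reached an adjusted p of 0.05 in edgeR or DESeq2 under any alternative without a replicate block: the size factors of DESeq2, DESeq2 1.42.0, total counts, loess offsets on abundance and on GC content (the latter chosen after seeing the data), other count minimums, other windows and leaving out each library. The numbers 1 and 2 of the labels were shared by both genotypes, but nothing in the labels says that a number marks a common batch. Deviations of same-numbered libraries correlated at 0.24 over 74550 peaks. With the replicate number as a block edgeR called 4 member windows, with 5 at an unadjusted p under 0.05, namely Rela (log2 fold change 0.34, adjusted p = 0.0266), Nfkb2 (0.35, 0.0229), Nfkbia (0.46, 0.00304) and Nfkbid (0.45, 0.00114), but also 1632 of all 16106 windows, with 3664 at an unadjusted p under 0.05. It called 3 members on own-gene peaks, with 5 at that p, as it did 963 of 12072 genes, with 2342. It called 23 of 75 pathway genes, with 39, to be read beside the share of all windows just given. It called 0 of 112 member peaks, with 16, beside 211 of all 74550 peaks, with 6966.

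At an unadjusted p under 0.05 the GC offset gave 1 of 9 windows, 8 of 112 member peaks and 3 of 75 pathway genes. DESeq2 gave 2 of 112 member peaks, beside 1486 of all 74550 peaks. A minimum of 50 counts gave 1 member peak, and gene spans with no extension gave 2 pathway genes. Apart from DESeq2, these counts were not set beside those of all features. With 1 library left out, the difference in the share of counts in TSS peaks, 1.22 percentage points, lay between −0.714 and 3.15.

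Some log2 fold changes changed sign, and the cause was not tested. With the loess offset on abundance the windows of Nfkb1 and Nfkbiz were at −0.038 and −0.056, own-gene peaks of Nfkb1 at −0.00092, the TSS peaks of Relb, Nfkb1 and Tnfaip3 at −0.089, −0.11 and −0.0079, and Prkcq, Birc3 and Junb at −0.0028, −0.090 and −0.056. With total counts the Nfkbiz window was at −0.034, and the next peaks of Rel and Nfkbid at −0.0034 and −0.021. With the GC offset own-gene peaks of Rel and Nfkbiz were at 0.045 and 0.053 and the next peak of Nfkbiz at 0.014. With no extension Relb was at 0.099, Nfkbiz at −0.059 and Nfkbib at −0.00018. Leaving out 1 library gave −0.44 to 0.055 for the window of Rel, −0.27 to 0.93 for Rela, −0.21 to 0.097 for Relb, −0.18 to 0.25 for Nfkbiz and −0.026 to 0.42 for Tnfaip3. It gave −0.41 to 0.12 for own-gene peaks of Rel, −0.28 to 0.18 for those of Nfkbiz and −0.015 to 0.59 for Map3k14. For TSS peaks it gave −0.41 to 0.22 at Rel, −0.040 to 0.22 at Nfkb1, −0.41 to 0.21 at Nfkbiz and −0.060 to 0.47 at Tnfaip3, and for the next peaks −0.081 to 0.17 at Rel, −0.47 to 0.63 at Rela, −0.21 to 0.12 at Nfkbiz and −0.10 to 0.17 at Nfkbid. At this depth 112 of the 136 member peaks reached the count minimum.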

Other observations

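Within the body of Nfkb1 the mark was divided unevenly, as was seen only after the values were known. Cut into 3 parts of equal length, the gene held 276 and 261 CPM in Ctrl and 286 and 271 CPM in KO in the part nearest its start. The middle part held 131 and 121 CPM in Ctrl and 128 and 136 CPM in KO. The last part, which contains the 11829 bp peak, held 283 and 246 CPM in Ctrl and 357 and 331 CPM in KO, and was the part in which KO exceeded Ctrl without overlap. Of its 9 tested peaks 7 had a log2 fold change above 0, with a median of 0.52, against 7 of 13 with a median of 0.010 in the first part and 4 of 8 with a median of −0.0079 in the middle part. No test was made, since the division was chosen after seeing the data.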
